A study of Mus musculus with 6 samples.

Results

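The unfolded protein and amino acid stress response was described in mouse optic nerve through 33 genes taken by name as sensors, factors and targets of the pathway. All 33 were found among the 24062 genes of the deposited count files. They were kept in 3 groups, which are 5 stress sensors and transcription factors, 14 genes of the Atf4 target arm and 14 genes of the endoplasmic reticulum (ER) chaperone arm. The 3 Nf1 mutant libraries came from optic nerves of PlpCreERT2;Nf1flox/flox animals, and the 3 control libraries came from optic nerves of animals whose genotypes name no Cre, Nf1flox/flox for control library 1 and Nf1flox/+ for control libraries 2 and 3. All animals were adults over 2 months of age when given tamoxifen, and the nerves were collected 1 month after it. PlpCreERT2 is a Cre recombinase that tamoxifen switches on in cells using the Plp promoter, which in the nerve are mainly oligodendrocytes, the myelinating cells. Nf1 encodes neurofibromin, which lowers Ras activity. The controls therefore shared the tamoxifen but not the Cre, and the labels do not say whether each library was 1 animal.

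Secretory and membrane proteins fold inside the ER, and unfolded protein there activates 3 membrane sensors, encoded by Eif2ak3 (PERK), Ern1 (IRE1) and Atf6. IRE1 splices the Xbp1 transcript, and cleaved ATF6 and spliced XBP1 enter the nucleus and switch on ER chaperones and folding enzymes. PERK and the amino acid sensor GCN2 phosphorylate the translation factor eIF2-alpha, which slows protein synthesis while raising translation of Atf4, and ATF4 then activates genes for amino acid synthesis and import and for feedback or cell death. Myelinating cells make very large amounts of membrane protein and lipid, and their stress responses are well studied in myelin disease. Counts per gene show neither the splicing of Xbp1 nor the translation of Atf4, so the readout here is transcript level alone.

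The DNA letters through which these factors are known to act are shown first. They set the 2 arms apart only in part, since many promoters of each arm lack its motif. The members were taken by name as known parts of the pathway, so motif shares above those of all genes are a description and no independent result. In RefSeq (GRCm38.p6), 30 of the 33 members had a promoter, taken from 250 bases before to 50 bases after the transcription start, and Atf6, Slc7a5 and Manf had none in the table used. The ER stress element, ERSE, was searched on both strands as CCAAT, any 9 bases and CCACG. It was found in 7 of 13 ER chaperone promoters (53.8%), in 0 of 13 Atf4 target promoters, and in 37 of the 27025 genes whose promoters were searched (0.137%). The 7 genes were Hspa5, Hsp90b1, Pdia6, Dnajc3, Calr, Canx and Creld2. In the lines that follow, capitals mark the fixed letters of the motif, and each sequence reads 5′ to 3′ on the strand that holds it. The first 4 lines show how the spacer between the fixed letters varies among chaperone genes, at chr2:34772020-34772048 (plus strand) for Hspa5, chr10:86705528-86705556 (plus strand) for Hsp90b1, chr14:118937822-118937850 (plus strand) for Dnajc3 and chr11:50325795-50325823 (minus strand) for Canx.
Hspa5 ERSE: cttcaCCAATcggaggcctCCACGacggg
Hsp90b1 ERSE: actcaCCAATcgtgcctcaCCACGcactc
Dnajc3 ERSE: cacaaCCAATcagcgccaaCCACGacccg
Canx ERSE: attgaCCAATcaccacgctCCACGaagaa
The Hspa5 match began 65 bases before the start, those of Dnajc3 and Canx 105 and 145 bases before it. Hsp90b1 held 2 matches.

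The motif known to bind ATF4 with a C/EBP partner, CARE, was searched as TGATGNAAN on both strands. It was found in 4 of 13 Atf4 target promoters (30.8%), those of Atf3, Trib3, Chac1 and Asns, in 1 of 13 ER chaperone promoters, that of Herpud1, and in 1215 of the 27025 genes (4.50%). Herpud1 also held the variant ERSE-II, searched as ATTGG, any 1 base and CCACG, which was found in 12 genes in all (0.0444%). It was the 1 member with both kinds of element. The sites stood at chr6:7693219-7693237 (minus strand) for Asns, chr1:191183431-191183449 (plus strand) for Atf3 and chr2:119351043-119351061 (minus strand) for Chac1.
Asns CARE: ccacaTGATGaAActtccc
Atf3 CARE: cttggTGATGcAAgtgcga
Chac1 CARE: aggagTGATGcAAcggcag
The 200 bases before the start are given for Asns, the member with the largest fold change, and for Hspa5, a well-studied ERSE promoter, with the whole motif in capitals. They lie at chr6:7693210-7693409 (minus strand) for Asns and chr2:34771890-34772089 (plus strand) for Hspa5.
Asns upstream: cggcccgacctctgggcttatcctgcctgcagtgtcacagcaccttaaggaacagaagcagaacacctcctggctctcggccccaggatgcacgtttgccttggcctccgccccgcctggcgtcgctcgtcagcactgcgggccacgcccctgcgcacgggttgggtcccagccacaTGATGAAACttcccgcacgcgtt
Hspa5 upstream: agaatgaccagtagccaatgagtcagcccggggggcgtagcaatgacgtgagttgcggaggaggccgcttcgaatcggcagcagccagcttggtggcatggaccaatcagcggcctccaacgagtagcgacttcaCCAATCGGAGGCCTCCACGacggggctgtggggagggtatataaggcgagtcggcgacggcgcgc
A match is a run of letters and was not tested for binding.

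Library totals ran from 13555756 to 19012262 counts in Nf1 mutants and from 21307855 to 23662698 in controls. The whole-gene count of the targeted gene, Nf1, does not resolve the floxed part and checks no label. Mutant library 2 stood apart from the other mutant libraries. Summed over 12 mature oligodendrocyte markers, all detected, values in CPM (counts scaled to a common, TMM-adjusted library size) were 5736, 34640 and 4907 in mutant libraries 1, 2 and 3, against 26980, 27770 and 26650 in controls 1, 2 and 3. The 9 neuron markers summed to 7089, 2141 and 5507 CPM in mutants, against 656, 806 and 1224 CPM in controls. The 9 striatal projection neuron markers, which an optic nerve is not known to contain, summed to 2222, 1378 and 1516 CPM in mutants, against 122, 111 and 168 CPM in controls. All 9 were detected in every library, and 9 of 9 passed the test. The neuron and striatal sums thus moved with the groups, and the oligodendrocyte sum with mutant library 2. That library was also the highest mutant for oligodendrocyte precursor, microglia, endothelial, pericyte and fibroblast sums. Microglia markers, for example, summed to 382, 754 and 281 CPM in mutants, against 727, 530 and 619 CPM in controls. Astrocyte sums overlapped, at 6868, 6914 and 5748 CPM in mutants, against 5621, 5796 and 5638 CPM in controls. The part of all these marker sums in the values that follow was not tested. In these bulk samples fewer cells of a type and less RNA per cell cannot be told apart. Xist, the X-inactivation transcript, had 2076, 2313 and 3611 CPM in mutants, against 2.87, 3016 and 1.41 CPM in controls, so its level was not balanced between the groups. With it as a covariate, edgeR called 0 members and 0 of all genes.

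None of the 33 genes passed the test for a difference between Nf1 mutant and control nerves. The test was edgeR's quasi-likelihood test with Benjamini-Hochberg adjustment over 16315 genes and a threshold of 0.05, and 32 members were abundant enough to enter it. It called 0 of the 32, against 3.29% of all genes tested (2.95% higher and 0.337% lower in mutants). At an unadjusted p under 0.05 it took 2, Asns and Pdia3, against 19.2% of all genes. DESeq2 called 1, Asns, against 9.17% of all genes, and limma-voom called 0. Log2 fold changes were negative in 28 of 32 members, against 50.1% of all genes. Their median was -0.32, against -0.0017 over all genes, and they ran from -0.72 for Atf3 to 1.51 for Asns. Median log2 fold changes were -0.15 in the sensors and factors, -0.34 in the Atf4 target arm and -0.34 in the ER chaperone arm.

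**Figure D1:**
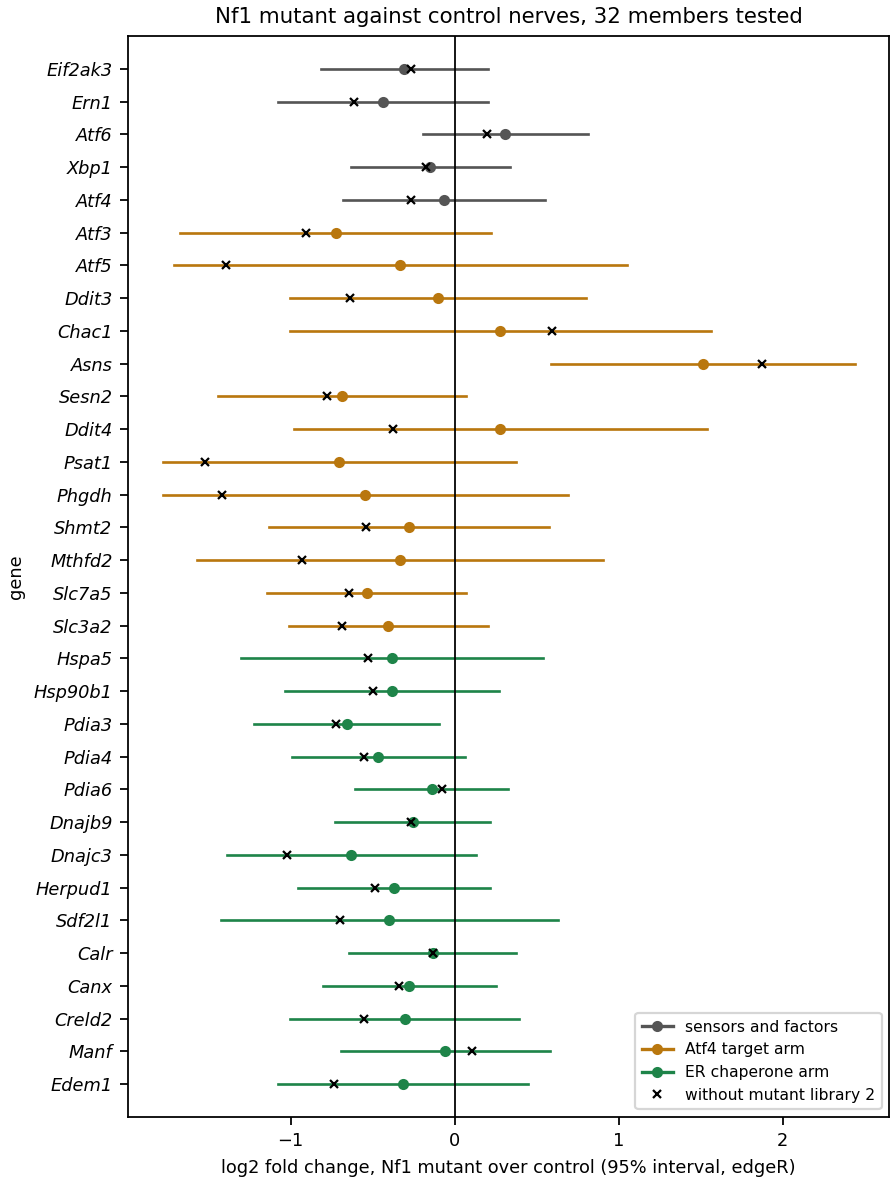
Log2 fold change of each tested member in Nf1 mutant over control nerves (edgeR), by arm; points are estimates, bars 95% intervals and crosses the estimates without mutant library 2. Asns is far to the right at 1.51, and the points of all 14 ER chaperone genes lie left of 0.

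In 9 of the 32 members (28.1%) the 3 mutant libraries did not overlap the 3 controls, against 24.0% of all genes. Asns was the 1 such member with all mutants above all controls. Eif2ak3, Ern1, Atf3, Sesn2, Pdia3, Pdia4, Dnajb9 and Canx had all mutants below all controls. By direction, these were 1 of 32 above, against 12.5% of all genes, and 8 of 32 below, against 11.5% of all genes. Both directions together, the share of members lies near that of all genes. Among the mutants, library 2 had the highest CPM of the 3 in 23 of 32 members (71.9%), against 38.9% of all genes, and library 3 the lowest in 19 (59.4%), against 33.6%. The median of the Atf4 target arm, as log2 of CPM over the control mean, was -0.58, 0.20 and -0.97 in mutant libraries 1, 2 and 3, against -0.06, -0.02 and 0.03 in controls 1, 2 and 3. For the ER chaperone arm it was -0.36, -0.14 and -0.60 in mutants, against -0.18, 0.16 and 0.10 in controls. Mutant libraries 1 and 3 thus lay below mutant library 2 in both arms, by more in the Atf4 target arm.

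**Figure D2:**
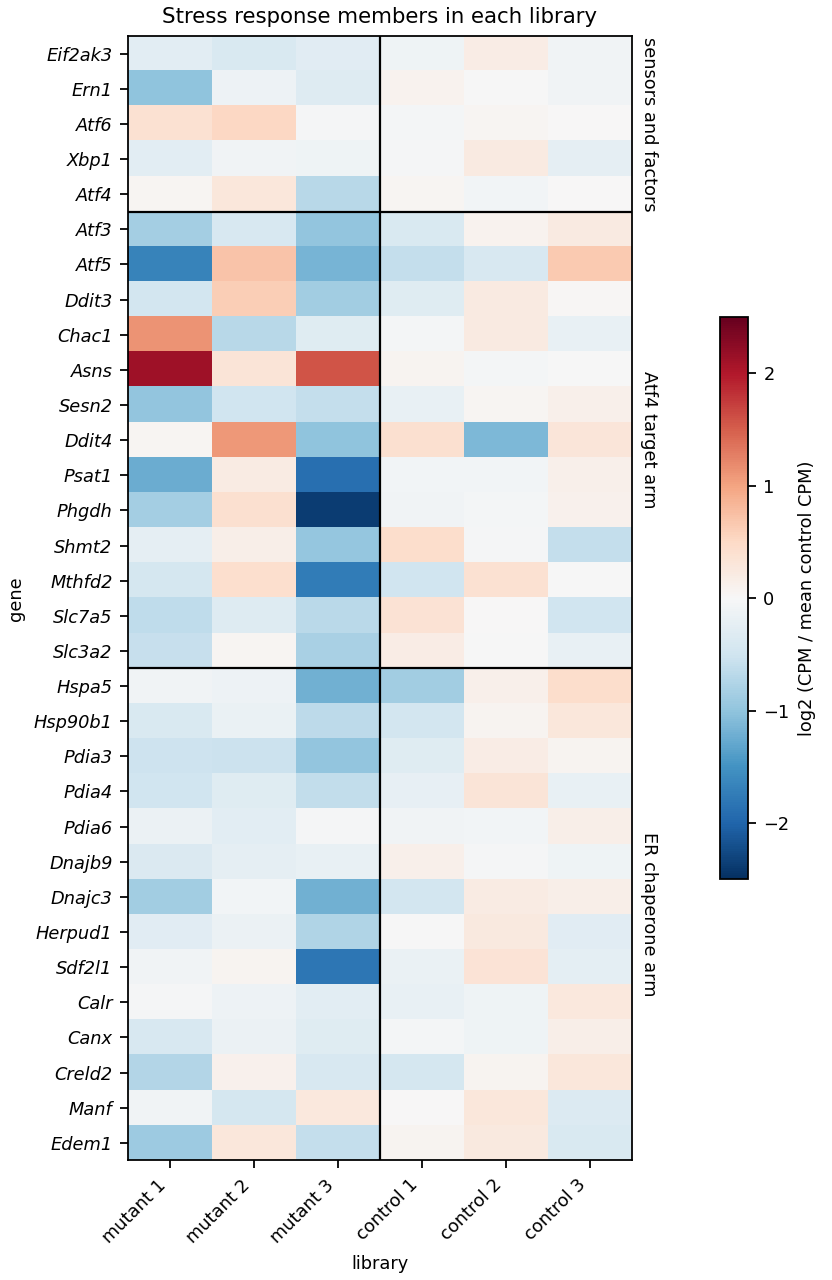
Level of each of the 32 tested members in each library, as log2 of CPM over the control mean (colour scale), with the 3 Nf1 mutant libraries left of the 3 controls and members grouped by arm. Mutant libraries 1 and 3 are low for Psat1, Phgdh and Dnajc3 and high for Asns, whereas mutant library 2 lies closer to the controls for these genes.

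The sensors and factors had log2 fold changes between -0.44 and 0.31, and none passed. Eif2ak3 had 22.2, 20.5 and 21.8 CPM in mutants, against 24.8, 30.1 and 25.0 CPM in controls, a log2 fold change of -0.31 (edgeR adjusted p 0.496, SE 0.22). Ern1 had 11.8, 21.5 and 18.9 CPM in mutants, against 24.9, 23.4 and 22.3 CPM in controls, a log2 fold change of -0.44 (adjusted p 0.438, SE 0.28). For both sensor kinases every mutant library lay below every control, and mutant library 1 of Ern1 lay furthest below. Atf6, the third sensor and itself a transcription factor, had 142, 157 and 108 CPM in mutants, against 106, 113 and 110 CPM in controls. Its mutants 1 and 2 lay above the controls and mutant 3 among them, and the log2 fold change was 0.31 (adjusted p 0.487, SE 0.22). Xbp1 had 87.5, 98.4 and 97.5 CPM in mutants, against 102, 123 and 89.0 CPM in controls, with overlapping groups. Atf4, the factor that gives the other arm its name, had 56.2, 66.2 and 33.9 CPM in mutants, against 56.7, 52.1 and 54.8 CPM in controls. Its mutants spread to both sides of a narrow control range, and its log2 fold change was -0.07, with a 95% interval from -0.68 to 0.55.

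In the Atf4 target arm, 3 of 13 tested genes had positive and 10 negative log2 fold changes, and none passed. Asns, asparagine synthetase, had 54.8, 15.7 and 37.5 CPM in mutants, against 13.2, 12.2 and 12.5 CPM in controls. All mutants were above a control range only about 1 CPM wide, but mutant library 2 lay close to it. Asns averaged 36.0 ± 19.6 CPM in mutants and 12.6 ± 0.531 CPM in controls (SD, n = 3 each). Its log2 fold change was 1.51 (SE 0.41, 95% interval 0.59 to 2.44), with an unadjusted p of 0.00497 and an edgeR adjusted p of 0.0865. It passed with no filter on low counts (adjusted p 0.0469), where 4.07% of all genes did, and with DESeq2 (adjusted p 0.00842). It did not pass without mutant library 1 (edgeR adjusted p 0.312) or 3 (0.200), nor without any 1 control (0.239 to 0.289). Nor did it pass with limma-voom (adjusted p 0.1085) or with Xist as a covariate (edgeR adjusted p 0.617). Without mutant library 2 it passed at a log2 fold change of 1.88 (edgeR adjusted p 0.000333), and over all 15 alternatives its adjusted p ran from 0.000333 to 0.738. The highest was that of mutant library 2 alone, at a log2 fold change of 0.32, where only the controls give the spread.

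Serine synthesis genes, other well-known ATF4 targets, stood in another order across the mutant libraries than Asns. Psat1, phosphoserine aminotransferase, had 194, 526 and 123 CPM in mutants, against 439, 434 and 499.7 CPM in controls. Mutant libraries 1 and 3 lay far below the controls and mutant library 2 above all of them. Phgdh, the first enzyme of the same route, had 38.0, 90.5 and 13.3 CPM in mutants, against 65.2, 67.0 and 74.6 CPM in controls, in the same order of libraries. Log2 fold changes were -0.70 (edgeR adjusted p 0.458, SE 0.47) for Psat1 and -0.55 (adjusted p 0.633, SE 0.55) for Phgdh. Within a library, the ratio of Asns to Psat1 CPM was 0.282, 0.0299 and 0.304 in mutants, against 0.0301, 0.0281 and 0.0250 in controls. This ratio needs no scaling between libraries, and it put mutant libraries 1 and 3 well above the rest and mutant library 2 inside the control range. The ratio of Psat1 to Phgdh CPM was 5.11, 5.82 and 9.31 in mutants, against 6.74, 6.49 and 6.70 in controls. The oligodendrocyte marker sums given above were likewise low in mutant libraries 1 and 3 and high in mutant library 2, and the neuron sums the reverse. Microglia and fibroblast sums also were highest in mutant library 2. The astrocyte sums differed less among mutants, but Slc1a2, their largest term, had 4772, 3214 and 3983 CPM there. Slc1a2, Slc1a3 and Aldoc were highest in mutant library 1 among the mutants. Gfap (281, 1200 and 223 CPM), Aqp4 (331, 825 and 328 CPM), Agt, Gjb6 and Gja1 were highest in mutant library 2. The part of these cell types in the different orders of Asns and of Psat1 and Phgdh was not tested.

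**Figure D3:**
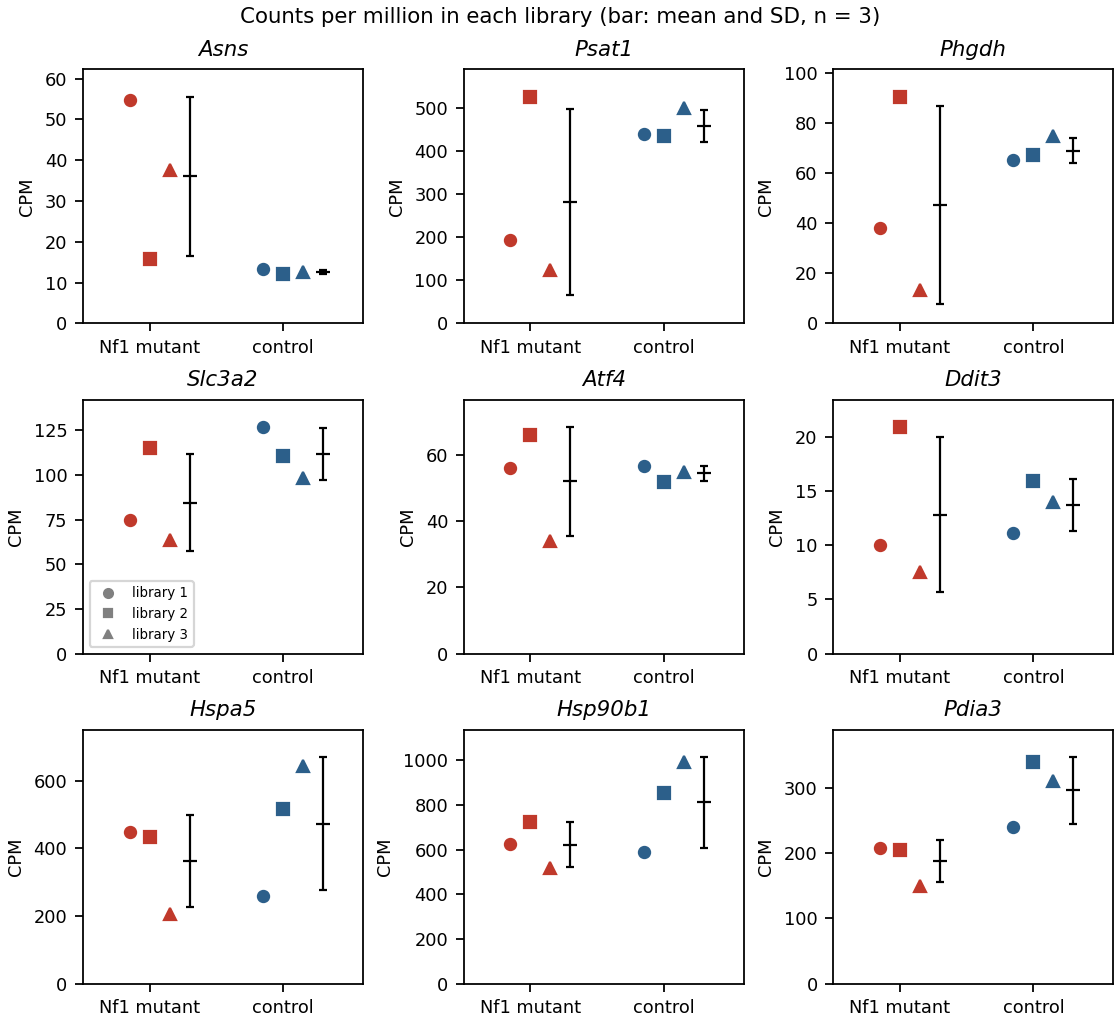
CPM of 9 members in each library, with Nf1 mutant libraries left of controls in each panel; symbols mark libraries 1, 2 and 3, and bars show mean and SD (n = 3). Asns is high in mutant libraries 1 and 3, at 54.8 and 37.5 CPM, where Psat1, at 194 and 123 CPM, is low.

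The 2 amino acid transporter chains and 2 mitochondrial one-carbon enzymes of this arm all had negative log2 fold changes. Slc3a2, the heavy chain of the large neutral amino acid transporter, had 74.8, 115 and 63.8 CPM in mutants, against 127, 111 and 98.2 CPM in controls. Slc7a5, its light chain LAT1, had 33.02, 40.6 and 31.8 CPM in mutants, against 65.4, 51.4 and 36.2 CPM in controls. Mutant library 2 was the highest mutant for both chains and lay within the control range. The log2 fold changes were -0.41 (edgeR adjusted p 0.449, SE 0.27) for Slc3a2 and -0.54 (adjusted p 0.317, SE 0.27) for Slc7a5. Shmt2 and Mthfd2, which move serine carbon into the mitochondrial folate pool, had log2 fold changes of -0.28 and -0.34, with 8.23 to 17.9 and 1.61 to 7.26 CPM in mutants, against 10.7 to 22.0 and 3.81 to 7.01 CPM in controls. Exons of Shmt2 share 34 bases with Ndufa4l2, which the unstranded counts cannot separate.

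Transcription factors and effectors downstream of ATF4 gave 2 positive and 4 negative log2 fold changes. Atf3, an early stress factor, had 2.37, 3.25 and 2.16 CPM in mutants, against 3.27, 4.56 and 5.02 CPM in controls, a log2 fold change of -0.72 (edgeR adjusted p 0.387, SE 0.42). Every mutant lay below every control, mutant library 2 by only a small margin. Ddit3, which encodes the cell death factor CHOP, had 9.98, 20.9 and 7.54 CPM in mutants, against 11.1, 16.0 and 14.02 CPM in controls. Mutant library 2 was above and mutant libraries 1 and 3 were below the control range, and the log2 fold change was -0.10 (SE 0.40). Its exons share 68 bases with Mars. Atf5, a factor of the same family, had 5.61, 29.3 and 7.95 CPM in mutants, against 11.8, 13.6 and 28.3 CPM in controls, so 1 library of each group stood above the others. It shares exon bases with Nup62, so its reads are uncertain to that extent. Sesn2, a stress-induced restraint on mTORC1 signalling, had 3.83, 5.37 and 5.02 CPM in mutants, against 6.69, 7.84 and 8.34 CPM in controls, a log2 fold change of -0.69 (adjusted p 0.305, SE 0.33). Ddit4, another mTORC1 inhibitor, and Chac1, which degrades glutathione, both had log2 fold changes of 0.28 with overlapping groups. For Ddit4 these rested on 12.2, 25.0 and 5.86 CPM in mutants, against 15.6, 5.39 and 14.5 CPM in controls. For Chac1 mutant library 1 alone, at 5.07 CPM, lay above the controls, which had 2.03 to 2.70 CPM. Trib3, a pseudokinase that feeds back on ATF4, had 15, 13 and 5 counts in mutants, against 9, 2 and 5 counts in controls, and was too low to be tested.

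The arm was also the more uneven of the 2 among mutants. The SD as a share of the mean had a median of 55.7% over its 13 tested genes in mutants, against 17.7% in controls, and was higher in mutants for 12 of 13 genes (92.3%), against 74.8% of all genes. For the ER chaperone arm the medians were 19.1% in mutants and 21.3% in controls. Summed over the 14 genes, the Atf4 target arm came to 453, 899.5 and 310.4 CPM in mutants, against 787, 749 and 809.5 CPM in controls, and Psat1 was its largest term in every library. The summed ER chaperone arm was 2337, 2661 and 1909 CPM in mutants, against 2370, 3148 and 3454 CPM in controls, and mutant library 3 was the lowest in both sums.

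**Figure D4:**
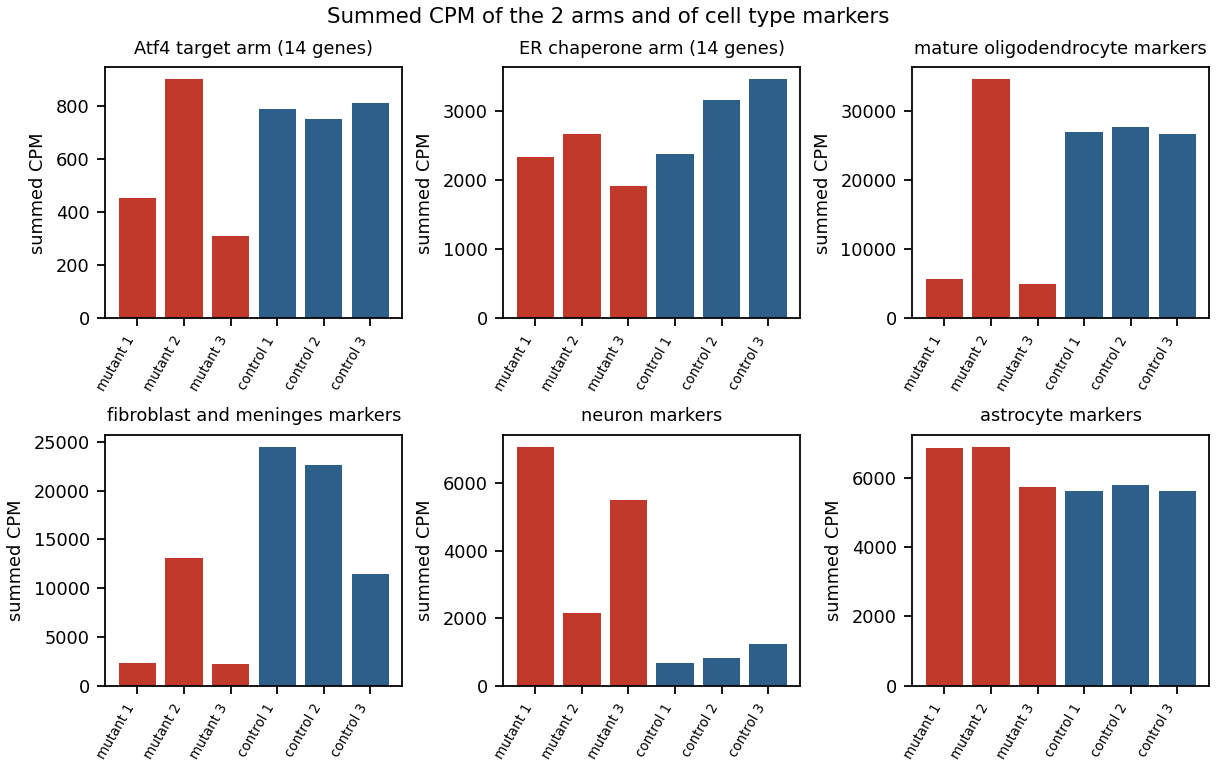
Summed CPM of the Atf4 target arm, the ER chaperone arm and the lists of oligodendrocyte, fibroblast and meningeal, neuron and astrocyte markers in each library (1 bar a library), Nf1 mutants left of controls. In the mutants the Atf4 target sum (453, 899.5 and 310.4 CPM) and the oligodendrocyte sum (5736, 34640 and 4907 CPM) are both highest in library 2, whereas the neuron sum is lowest there (2141 CPM). The fibroblast and meningeal sum (2360, 13060 and 2216 CPM), most of it Ptgds (2022, 11420 and 1793 CPM), is also highest there. The astrocyte sum, with Slc1a2 as its largest term, differs less (6868, 6914 and 5748 CPM).

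All 14 ER chaperone genes had negative log2 fold changes, from -0.66 for Pdia3 to -0.06 for Manf, and none passed. Hspa5, the master chaperone BiP, had 448, 434 and 207 CPM in mutants, against 258, 517 and 645 CPM in controls. The groups overlapped widely, since control 1 lay below mutants 1 and 2, and the log2 fold change was -0.38 (SE 0.41, 95% interval -1.30 to 0.54, edgeR adjusted p 0.655). Hsp90b1, the ER form of Hsp90, had 627, 723 and 519 CPM in mutants, against 592, 854 and 991 CPM in controls, again with control 1 among the mutants. Its log2 fold change was -0.38 (adjusted p 0.508, SE 0.29).

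Of the disulfide isomerases, Pdia3, which works with the lectin chaperones on glycoproteins, had 207.5, 205 and 150.0 CPM in mutants, against 239.6, 339 and 309.7 CPM in controls. Its mutants all lay below its controls, and the log2 fold change was -0.66 (SE 0.25, unadjusted p 0.0266, edgeR adjusted p 0.195). Pdia4 had 53.4, 61.7 and 49.5 CPM in mutants, against 65.9, 94.2 and 66.8 CPM in controls, a log2 fold change of -0.46 (adjusted p 0.321, SE 0.23), with no overlap. Pdia6 had 51.6 to 60.9 CPM in mutants and 58.6 to 68.5 CPM in controls, and shares 50 exon bases with Atp6v1c2. The lectin chaperones themselves stood at high levels in every library. Canx, calnexin, had 461, 547 and 489.9 CPM in mutants, against 585, 564 and 666 CPM in controls, and its mutants all lay below. Calr, calreticulin, had 189.5, 176 and 161 CPM in mutants, against 169, 178 and 231 CPM in controls, with overlap and a log2 fold change of -0.13.

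Among the J-domain cofactors of BiP, Dnajc3 (p58IPK, which also inhibits PERK) had 143, 251 and 115 CPM in mutants, against 193, 304 and 293 CPM in controls, a log2 fold change of -0.63 (edgeR adjusted p 0.345, SE 0.34). Mutant libraries 1 and 3 were below all controls. Dnajb9 (ERdj4) had 36.6, 39.9 and 41.0 CPM in mutants, against 51.3, 45.9 and 43.3 CPM in controls, a log2 fold change of -0.26 with no overlap. Herpud1, part of the machinery that sends misfolded proteins to the proteasome, had 29.7, 32.7 and 21.4 CPM in mutants, against 35.7, 42.6 and 29.7 CPM in controls. Edem1, which marks misfolded glycoproteins for disposal, had 34.5, 79.1 and 42.9 CPM in mutants, against 67.7, 77.1 and 49.4 CPM in controls, and mutant library 2 was again its highest mutant. The log2 fold changes were -0.37 for Herpud1 and -0.31 for Edem1. Sdf2l1, Creld2 and Manf, which encode stress-induced proteins of the ER lumen, had 4.47 to 28.9 CPM in mutants and 13.3 to 29.1 CPM in controls, with overlap in all 3. The largest departure among them was mutant library 3 for Sdf2l1, at 4.47 CPM.

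The presence of ERSE did not divide the fold changes of the ER chaperone arm. The 7 ER chaperone genes with ERSE had log2 fold changes from -0.63 to -0.13 with a median of -0.30, and the 6 without it from -0.66 to -0.26 with a median of -0.38. Over all 19 tested genes whose promoters hold ERSE, 15 had negative log2 fold changes, against 50.1% of all genes, and the median was -0.30. These 19 include the 7 members just given, all negative, so they are no separate set. Of the 4 tested members with CARE, Asns and Chac1 had positive and Atf3 and Herpud1 negative log2 fold changes. The median of the 4 was -0.044. The 9 tested Atf4 target genes with a promoter but no CARE had 1 positive and 8 negative log2 fold changes, with a median of -0.335. This difference rests on few genes and was not tested. All 342 tested genes with CARE had a median of -0.04, and 12 of them were called, against 3.29% of all genes tested, a share near the background.

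Leaving out mutant library 2 changed what passed. In that comparison 7 of the 32 members were called (21.9%), but so were 27.0% of all genes, and the share of members is therefore no result about the module. Asns was the 1 higher in mutants. The 6 lower in mutants were Psat1 (log2 fold change -1.52, edgeR adjusted p 0.000934), Phgdh (-1.42, adjusted p 0.0167), Atf5 (-1.40, adjusted p 0.0288), Dnajc3 (-1.02, adjusted p 0.0105), Pdia3 (-0.72, adjusted p 0.0400) and Slc3a2 (-0.69, adjusted p 0.0339). With mutant library 2 alone against the controls, the log2 fold changes of Psat1 and Phgdh were 0.20 and 0.39. In that comparison 0 members were called, against 1.28% of all genes, but the spread comes from the 3 controls alone and the lone mutant library is assumed to vary like them, so the count says nothing about the mutant group.

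Levels of different members can be compared only per length of exon. In the controls, Hsp90b1 was highest at 294.5 ± 73.6 CPM per kb (SD, n = 3), followed by Psat1 at 183.7 ± 14.6, Hspa5 at 181 ± 75.3 and Canx at 141 CPM per kb. The range of Hsp90b1 in controls did not overlap that of Psat1, whereas Psat1 and Hspa5 could not be ordered beyond their spread. Psat1, an enzyme of serine synthesis, thus overlapped Hspa5 in control nerve, with its control range wholly below that of Hsp90b1 and wholly above those of Canx, Pdia3 and Calr. At the low end were Atf3 at 2.17, Chac1 at 1.48 and Trib3 at 0.12 CPM per kb. Of the 32 pairs of neighbours in this order, 24 overlapped in their control ranges and 8 did not.

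**Figure D5:**
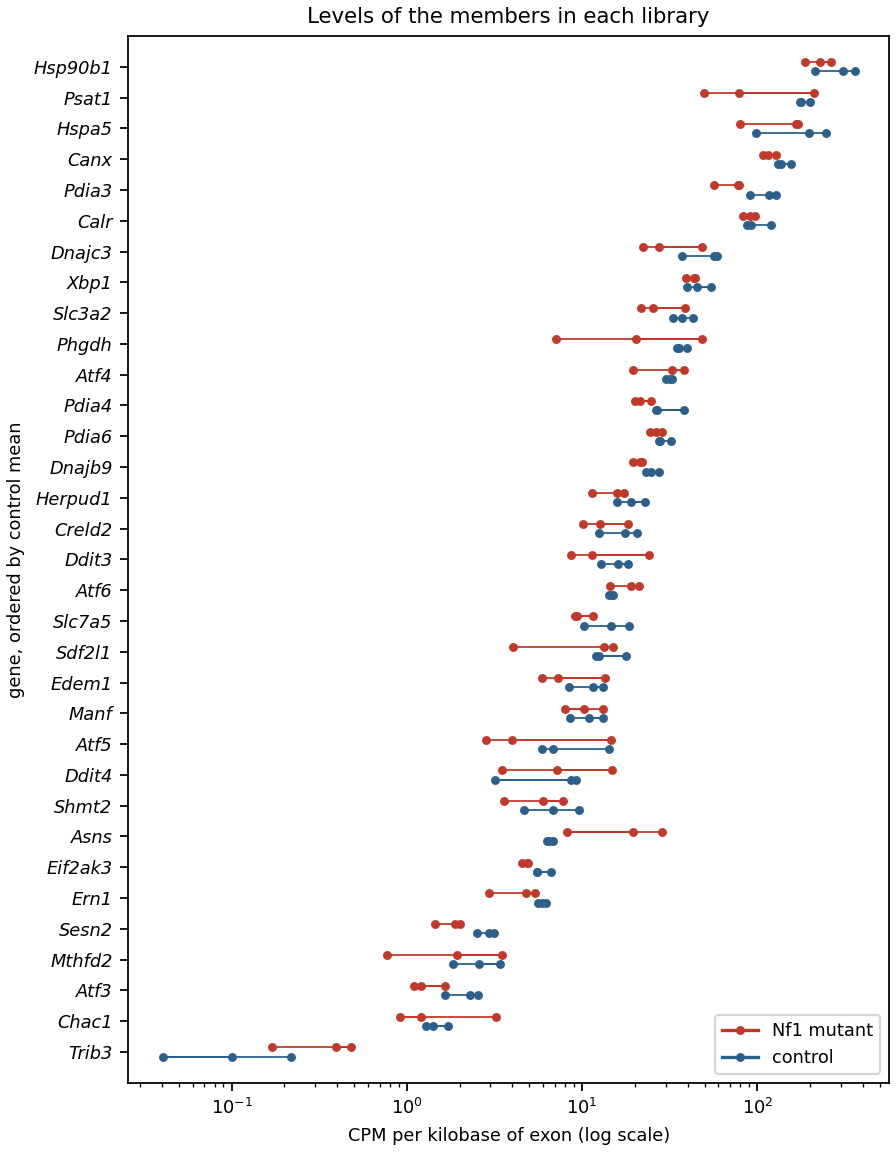
CPM per kb of exon for all 33 members on a log axis, in order of the control mean, with each library as a point and a line over the range of each group, Nf1 mutants above controls. Members span from Hsp90b1, with a control mean of 294.5 CPM per kb, to Trib3, with 0.12 CPM per kb.

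Other genes of the same pathways, 118 in 6 lists drawn up by function, were read in the same test. Of the 114 tested, 1 was called, against 3.29% of all genes. This was Bcl2l11, which encodes the death-promoting protein BIM, a target of CHOP and of other factors. It had 11.1, 20.3 and 13.5 CPM in mutants, against 34.3, 34.0 and 40.3 CPM in controls, and fell by 1.28 on the log2 scale (edgeR adjusted p 0.0463, SE 0.28). The call was lost on leaving out mutant library 1 or 3 or any 1 control (adjusted p 0.146 to 0.193), and with the level of Xist as a covariate (adjusted p 0.506), and held without mutant library 2 (adjusted p 0.00112). The other 16 stress kinases, phosphatase subunits and sensors did not pass, and the list's median log2 fold change was -0.17.

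Of the amino acid response and one-carbon list, 0 of 21 tested genes passed with edgeR (5 at an unadjusted p under 0.05, against 19.2% of all genes, and 3 with DESeq2, against 9.17%), and the median log2 fold change was -0.24. Slc7a11, the cystine importer and a known ATF4 target, had 187, 405 and 289 CPM in mutants, against 749, 568 and 545 CPM in controls. Its groups did not overlap, and the log2 fold change was -1.08 (edgeR adjusted p 0.116, SE 0.32). Slc1a5, a glutamine transporter, and Nupr1, a stress-induced chromatin protein, had log2 fold changes of -1.24 (adjusted p 0.119) and -1.62 (adjusted p 0.151). Slc7a11, Slc1a5 and Nupr1 were the 3 that passed with DESeq2 (adjusted p 0.0206, 0.0270 and 0.0267). Nupr1 also passed with limma-voom (adjusted p 0.0488). With Xist as a covariate none of these genes passed (edgeR adjusted p 0.682, 0.637 and 0.618). The 12 aminoacyl-tRNA synthetases, many of which ATF4 also activates, had positive log2 fold changes in 10 of 12, with a median of 0.15 and 0 called by edgeR, at an unadjusted p under 0.05 or by DESeq2. Gars, glycyl-tRNA synthetase, had 61.1, 49.7 and 64.4 CPM in mutants, against 42.2, 42.5 and 45.2 CPM in controls, with no overlap and a log2 fold change of 0.43 (adjusted p 0.308, SE 0.21).

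Lists of the secretory pathway gave 0 calls by edgeR and by DESeq2 among 20 genes of ER-associated degradation, 24 other ER folding genes and 20 genes of translocation and N-glycosylation. At an unadjusted p under 0.05 they gave 3, 2 and 2 genes, each a smaller share than the 19.2% of all genes. Their median log2 fold changes were -0.14, -0.29 and -0.29. The smallest p belonged to Syvn1, the ubiquitin ligase HRD1 (-0.75, edgeR adjusted p 0.228), to Fkbp14, a prolyl isomerase for collagens (-0.61, adjusted p 0.233), and to Stt3a, a catalytic subunit of oligosaccharyltransferase (-0.68, adjusted p 0.127). Serpinh1, the collagen chaperone HSP47, had 7.99, 33.03 and 6.42 CPM in mutants, against 38.8, 38.4 and 41.9 CPM in controls. The 9 fibroblast and meningeal markers, all detected in every library, summed to 2360, 13060 and 2216 CPM in mutants, against 24530, 22620 and 11500 CPM in controls. Most of each sum was the 1 gene Ptgds, at 2022, 11420 and 1793 CPM in mutants, against 21690, 19890 and 9370 CPM in controls. The part of these markers in the values of the secretory lists was not tested.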

How the data were processed

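Per the labels' protocols, RNA of optic nerves went through NuGEN Ovation amplification before Nextera XT library preparation. The deposited values are raw counts of fragments per gene, which the authors obtained with featureCounts 1.4.6-p4 from paired, unstranded reads over exons, per the file headers. The names TopHat, DESeq2 and mm10 are named in the submitters' processing notes. Unstranded counts cannot separate overlapping genes.

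CPM values use TMM-scaled library sizes. The test was edgeR 4.0.16 in R 4.3.3, a quasi-likelihood F test with TMM scaling, filterByExpr at a minimum count of 10, no covariate, and Benjamini-Hochberg adjustment over 16315 genes with a threshold of 0.05. The standard error (SE) is the log2 fold change divided by the square root of F. The script was tested on simulated data. No 2 libraries agreed within sampling noise (lowest chi-square divided by its degrees of freedom 45.6), so each counted once. By this measure mutant library 2 stood at 180.6 and 202.7 from mutant libraries 1 and 3. From controls 1, 2 and 3 it stood at 63.8, 59.5 and 63.7, within the 45.6 to 115.3 between controls. The labels do not tie libraries to separate animals, so the spread behind each p-value is one between libraries and may partly be technical. Replicates were numbered by deposit order, which pairs nothing.

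Alternatives were other scalings (DESeq2 size factors, upper quartile, total counts), no filter on low counts, removal of the ribosomal RNA precursor Rn45s, DESeq2 1.42.0, limma-voom (limma 3.58.1), omission of each library in turn and the log2 CPM of Xist as covariate. Mutant library 2 alone against the controls was chosen after seeing the data. The members and lists were chosen with earlier results of these data known. From each wider list the genes that passed, and otherwise up to 3 with the smallest p, could be named. Promoters were RefSeq sequences of GRCm38.p6, searched on both strands. Promoters not 300 bases long, and those of a chromosome that holds no member, were left out, which gave the 27025 genes. Protein sequences were not analysed here.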

Additional observations from a re-analysis of the deposited data

How the results depend on the processing

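All 32 tested members kept their direction and their side of the threshold under limma-voom, after removal of Rn45s, and under the other 3 scalings (upper quartile, total counts and the size factors of DESeq2). With no filter on low counts 1 member was called, with DESeq2 1, and on leaving out single libraries 0 to 7. Over all genes, where the test called 537, there were 870 calls with no filter, 1657 with DESeq2, 0 with Xist as a covariate (1294 at an unadjusted p under 0.05), 51 to 4551 on leaving out single libraries, and 222 with mutant library 2 alone. Of the wider lists 4 genes were called with DESeq2, 2 with limma-voom, 0 with Xist as a covariate, 0 to 20 on leaving out single libraries, and 0 with mutant library 2 alone, where only the controls give the spread and the lone mutant library is assumed to vary like them.

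The median log2 fold change of the sensors and factors was -0.38 with Xist as a covariate and -0.27 to -0.088 on leaving out single libraries. That of the Atf4 target arm was -0.69 to -0.04 on leaving out single libraries and 0.20 with mutant library 2 alone, and that of the ER chaperone arm -0.51 to -0.25 on leaving out single libraries. Signs turned for uncalled genes. With Xist as a covariate these were Atf4 (0.032), Atf5 (0.12) and Calr (0.0016). With mutant library 2 alone they were Atf4 (0.28), Atf5 (0.71), Ddit3 (0.61), Chac1 (-0.69), Psat1 (0.20), Phgdh (0.39), Shmt2 (0.15), Mthfd2 (0.43), Slc3a2 (0.041), Sdf2l1 (0.078), Creld2 (0.11) and Edem1 (0.29). On leaving out single libraries the values ran from -0.27 to 0.17 for Atf4, -1.40 to 0.16 for Atf5, -0.64 to 0.17 for Ddit3, -0.48 to 0.60 for Chac1, -0.38 to 0.65 for Ddit4, -0.54 to 0.017 for Shmt2, -0.93 to 0.056 for Mthfd2, -0.21 to 0.014 for Calr and -0.25 to 0.11 for Manf. The cause was not tested.

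No paired analysis was possible because replicates were numbered only by deposit order and the labels pair no libraries. With 3 libraries a group, intervals are wide, as for Hspa5 (-1.30 to 0.54), so a gene that missed the threshold is not shown to be unchanged.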
